A study of Mus musculus with 32 samples.

Results

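The transcripts of 8 signalling genes were followed across sorted blood stem and progenitor cells of mice with a removable Jak2V617F mutation. They are the 4 Janus kinases (Jak1, Jak2, Jak3 and Tyk2) and 4 of the STAT transcription factors (Stat3, Stat5a, Stat5b and Stat6). They were taken by name from a count table of 33924 genes, without regard to their values, and all 8 passed the filter on low counts in every fit.

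Janus kinases sit on the inner tail of cytokine receptors. When a ligand draws receptor chains together, the kinases phosphorylate the receptor and then the STAT proteins, which pair, enter the nucleus and bind DNA. JAK2 serves the erythropoietin receptor and related receptors and mainly activates STAT5A and STAT5B. JAK1, JAK3 and TYK2 serve interleukin and interferon receptors, and STAT3 and STAT6 are the main partners of the interleukin 6 and interleukin 4 receptors. The V617F change makes JAK2 active without ligand and drives human myeloproliferative neoplasms. Activity is set largely by phosphorylation, which RNA counts do not measure.

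Bone marrow cells had Jak2V617F switched on ex vivo by Dre mRNA and were transplanted into lethally irradiated mice, so every group carried the mutation at the start. Tamoxifen activates Cre, which deletes the mutant allele. Ruxolitinib inhibits the kinase activity of JAK1 and JAK2 and leaves the gene in place. LSK cells (lineage negative, Sca1+, Kit+) hold the stem cells, and MEP cells are the progenitors of platelets and red cells. In LSK cells there were 4 vehicle libraries of batch A, 3 at tamoxifen day 3, 4 at day 7, 2 vehicle libraries of batch C and 3 with ruxolitinib at day 7. In MEP cells the numbers were 3, 4, 3, 3 and 3. Vehicle libraries are labelled day 0, the tamoxifen libraries are in batch A and the ruxolitinib libraries in batch C, and each treatment was compared with the vehicle of its own batch. The labels name no strain, age or dose, and no group without the mutation was analysed here.

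The genes lie on 6 chromosomes of mm10 in GENCODE M21. Jak1 is at chr4:101152367-101265282 on the minus strand, Jak2 at chr19:29251828-29313080 on the plus strand, Jak3 at chr8:71676296-71690575 on the plus strand and Tyk2 at chr9:21104068-21131243 on the minus strand. Stat6 is at chr10:127642986-127660957 on the plus strand. The other 3 STAT genes stand side by side: Stat5b at chr11:100780731-100850724 on the minus strand, Stat5a at chr11:100859351-100885169 on the plus strand and Stat3 at chr11:100885098-100939540 on the minus strand. Stat5b and Stat5a start 8626 bases apart and are read away from each other, while Stat5a and Stat3 run tail to tail and overlap by 72 bases. Stat5a and Stat5b are near copies: 10.8% of the 50-base stretches of the longest Stat5a transcript also occur in that of Stat5b, and 11.8% of those of Stat5b occur in Stat5a. No other pair of the 8 genes shares such a stretch. How reads with several alignments were counted was not stated in the labels or notes, so the split between Stat5a and Stat5b is uncertain. The strand setting was not stated either. Reads can therefore not be assigned between Tyk2 and its antisense gene 1700084C06Rik (5 to 96 counts), which share 554 exon bases. Jak3 and Insl3 (0 to 15 counts) share 404 exon bases on the same strand, where no strand setting would separate their reads.

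The promoters of Jak1, Jak3, Stat3 and Stat5b are printed because these were the members called in a treatment comparison. They run from 250 bases before to 50 bases after the gene start, 5′ to 3′ on the gene's strand (RefSeq, GRCm38.p6). Capitals mark GGGCGG or its reverse complement CCGCCC, the core of the GC box bound by SP factors. The windows are chr4:101265174-101265473 (minus) for Jak1, chr8:71676133-71676432 (plus) for Jak3, chr11:100939491-100939790 (minus) for Stat3 and chr11:100850532-100850831 (minus) for Stat5b.
Jak1: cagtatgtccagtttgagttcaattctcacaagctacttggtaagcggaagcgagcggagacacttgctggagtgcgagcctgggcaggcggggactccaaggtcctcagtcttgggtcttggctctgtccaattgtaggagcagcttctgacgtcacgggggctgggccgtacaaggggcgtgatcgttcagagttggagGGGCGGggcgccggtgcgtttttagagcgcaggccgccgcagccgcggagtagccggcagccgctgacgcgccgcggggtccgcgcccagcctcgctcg
Jak3: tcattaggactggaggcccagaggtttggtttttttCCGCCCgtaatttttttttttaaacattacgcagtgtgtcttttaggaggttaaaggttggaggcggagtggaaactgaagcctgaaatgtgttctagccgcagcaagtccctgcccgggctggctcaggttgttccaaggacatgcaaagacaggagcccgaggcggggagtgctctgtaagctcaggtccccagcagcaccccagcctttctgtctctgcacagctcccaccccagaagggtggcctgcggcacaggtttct
Stat3: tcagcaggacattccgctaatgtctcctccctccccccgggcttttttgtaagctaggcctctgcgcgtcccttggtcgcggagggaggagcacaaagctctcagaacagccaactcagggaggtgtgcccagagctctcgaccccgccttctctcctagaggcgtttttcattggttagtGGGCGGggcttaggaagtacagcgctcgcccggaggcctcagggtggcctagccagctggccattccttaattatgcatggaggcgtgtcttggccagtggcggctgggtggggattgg
Stat5b: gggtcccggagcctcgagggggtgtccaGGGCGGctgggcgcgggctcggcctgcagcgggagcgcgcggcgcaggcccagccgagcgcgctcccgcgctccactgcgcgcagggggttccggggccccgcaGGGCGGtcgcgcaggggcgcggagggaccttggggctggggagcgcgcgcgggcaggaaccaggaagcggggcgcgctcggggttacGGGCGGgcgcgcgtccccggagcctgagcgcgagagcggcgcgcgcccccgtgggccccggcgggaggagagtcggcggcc
The GC content of these windows was 64.67%, 54.33%, 60.67% and 82.67% in the same order. There were 10 promoter entries for the 8 members, as Stat5a and Stat5b each had a further entry. The other Stat5b entry, chr11:100822521-100822820 (minus), is not printed. Its GC content was 47.33%, and it held no GGGCGG on either strand. GGGCGG, on either strand, occurred in 7 of the 10 entries and in 7 of the 8 members, all but Stat6, against 35.7% of 32851 promoters of the same length. The STAT motifs TTCNNNGAA and TTCNNNNGAA and the GATA motif AGATAA, each searched on both strands, had no match in any of the 10 entries. They occurred in 8.3%, 6.95% and 11.2% of all promoters. These are letter matches in short windows and say nothing of binding.

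Levels below are CPM (counts scaled to a common library total) after TMM scaling within a cell type, with a value for each library, except that markers of cell types, by name or summed, and the library index are given as plain CPM without TMM factors. Total counts ran from 11.16 to 28.84 M in batch A and from 26.51 to 55.47 M in batch C (M stands for mega). Differences are fitted log2 fold changes with standard errors, and a gene was called where edgeR's quasi-likelihood F test gave an adjusted p below 0.05 over all genes tested. Nothing in the labels says that libraries of a group came from separate mice, so p-values measure the spread between these libraries. In sorted bulk cells, fewer cells of a type and less RNA per cell cannot be told apart. All 4 LSK day 7 libraries held the LSK sort marker Ly6a, at 34.9 to 69.0 plain CPM, low against 67.9 to 172 in LSK vehicle A. Ly6a was also low at LSK day 3, at 19.0 to 48.9 plain CPM. With ruxolitinib in LSK cells it was 48.0 to 58.2 plain CPM, against 103 to 143 in LSK vehicle C. The LSK day 7 libraries held Cd34 at 720 to 1020 plain CPM, against 340 to 1080 in LSK vehicle A. Ly6a did not exceed 1.65 plain CPM in MEP libraries.

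LSK day 7 replicates 1 to 3 stood apart from replicate 4. Of 7279 genes with a mean of at least 20 CPM, 293 were lower by more than 2 on the log2 scale in those 3 libraries, Jak3 and Stat3 among them, and 0 were higher by as much. The median log2(CPM + 1) of the other 291 genes is used below as a library index, chosen after seeing the data. In LSK cells the index was 3.75 to 4.56 in day 7 replicates 1 to 3 and 6.12 to 6.97 in all other libraries. In MEP cells it was lowest at day 7 (3.91 to 4.03), then came vehicle A (5.19 to 6.11), vehicle C (6.00 to 6.65), tamoxifen day 3 (6.23 to 6.89) and ruxolitinib (6.82 to 6.93). Its part in the results was not tested beyond the fits that carry it as a covariate. The LSK vehicle libraries with label number 18, replicate 2 in both batches, were the highest of their group for 7 of the 8 members in vehicle A, all but Jak2, and for 8 of 8 in vehicle C.

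**Figure D1:**
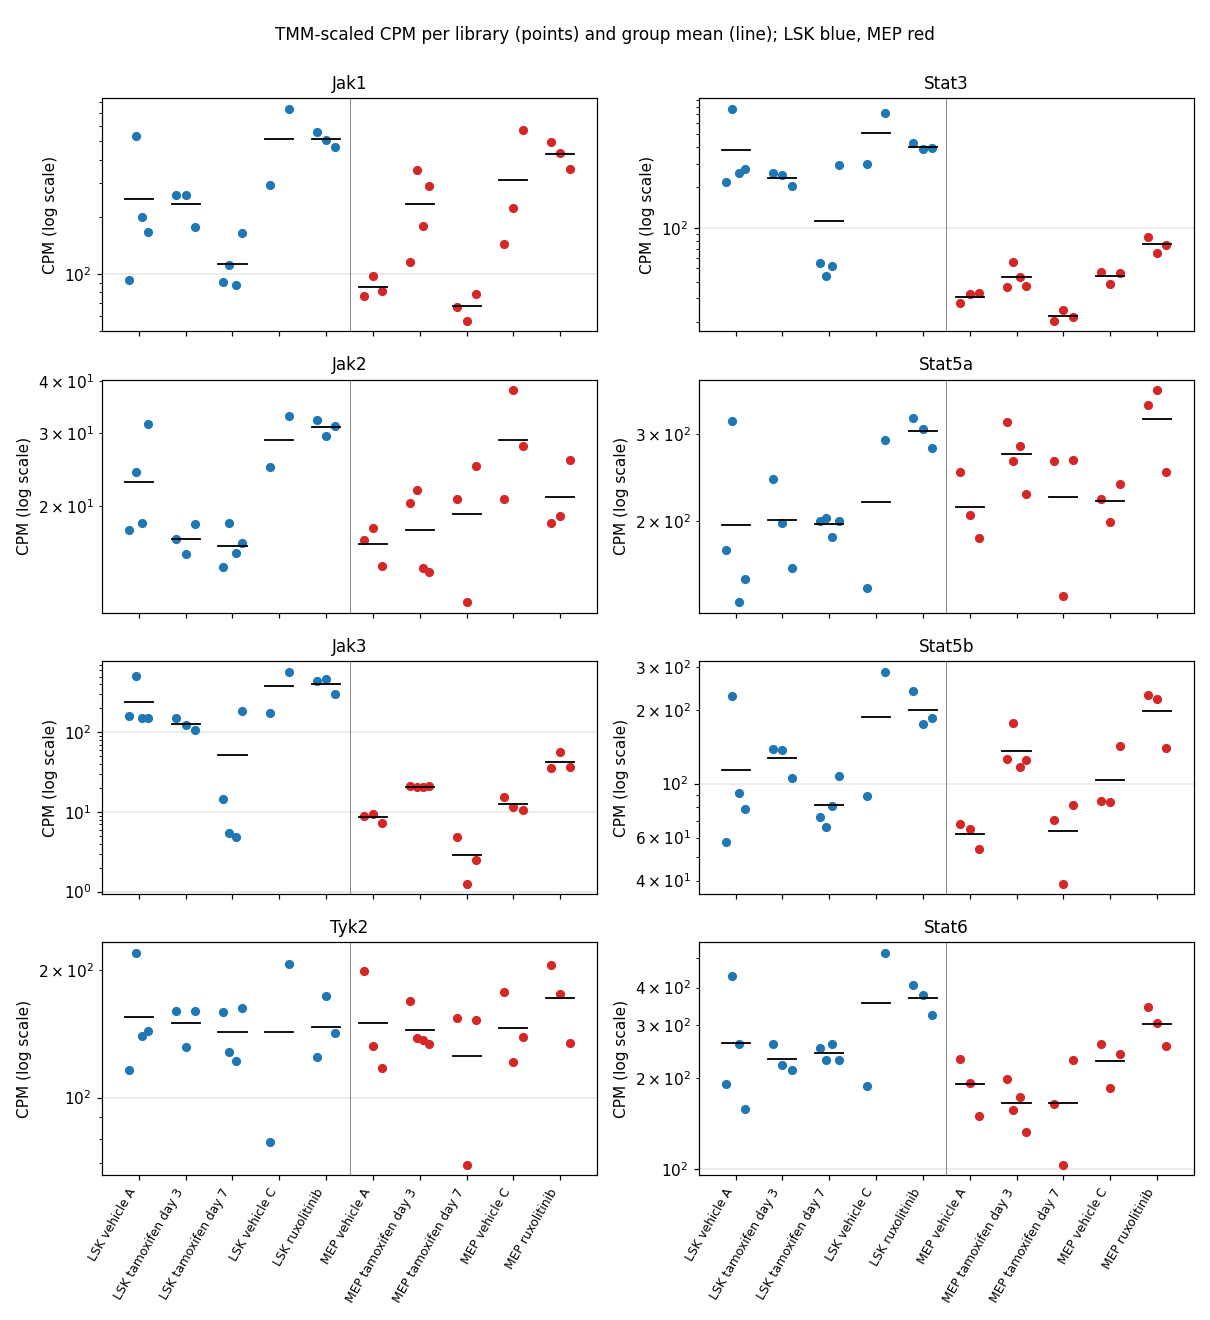
CPM on a log axis of each member in each of the 32 libraries, by group. Jak3 and Stat3 separate the cell types and split the LSK day 7 libraries, while Jak2 stays between 11.8 and 38.0 CPM throughout.

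Jak2, the mutated and targeted gene, was never called in a treatment comparison. In LSK vehicle A it was 17.6, 24.2, 18.2 and 31.5 CPM, with 16.7, 15.4 and 18.1 CPM at tamoxifen day 3 and 14.3, 18.2, 15.4 and 16.3 CPM at day 7. The day 7 libraries lay at the lower edge of the vehicle libraries and overlapped them, with a log2 difference of -0.51 ± 0.23 (edgeR adjusted p = 0.496). With ruxolitinib it was 32.2, 29.6 and 31.1 CPM, against 24.8 and 32.9 CPM in vehicle C. In MEP cells it was 16.6, 17.7 and 14.4 CPM in vehicle A, 20.3, 21.9, 14.2 and 13.9 CPM at day 3 and 20.9, 11.8 and 25.0 CPM at day 7. After TMM scaling these groups overlapped, with log2 differences of 0.12 at day 3 and 0.24 at day 7. In plain CPM the day 7 libraries held 28.8, 22.6 and 31.0, each above vehicle A at 15.7, 18.6 and 17.0. Jak2 at MEP day 7 was called in 0 of 10 other settings, over a log2 range of -0.23 to 0.60. MEP vehicle C held 20.8, 38.0 and 28.0 CPM and ruxolitinib 18.2, 19.0 and 25.8 CPM, a difference of -0.46 ± 0.30 (edgeR adjusted p = 0.215). The counts do not separate the mutant allele from the normal allele, so they do not check the deletion.

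Within a library, levels of different genes were compared as CPM per kilobase of exon. Stat6 was highest of the 8 in 27 of 32 libraries, Jak2 was lowest in 18 and Jak3 in 13, and Stat5a exceeded Stat5b in 31. In LSK vehicle A the order of mean levels per kilobase was Stat6 (61.8), Jak3 (45.0), Stat3 (39.8), Jak1 (33.8), Stat5a (28.6), Tyk2 (24.0), Stat5b (20.6) and Jak2 (5.01). Of neighbours in that order, Stat5b and Jak2 alone had ranges that did not overlap. In MEP vehicle A the order was Stat6 (45.4), Stat5a (31.4), Tyk2 (22.6), Jak1 (12.5), Stat5b (11.8), Stat3 (3.45), Jak2 (3.40) and Jak3 (1.68). Here Jak1 with Stat5b and Stat3 with Jak2 overlapped, and every other pair of neighbours was apart. Jak3 had rank 2 of 8 in LSK vehicle A, rank 3 in LSK vehicle C, and rank 8 in both MEP vehicle groups and at MEP day 7. Jak2 had rank 8 in every LSK group and, in MEP cells, at tamoxifen day 3 and with ruxolitinib. With the longest transcript as the length, Stat6 was highest in 10 of 32 libraries, so the upper places depend on the length used.

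**Figure D2:**
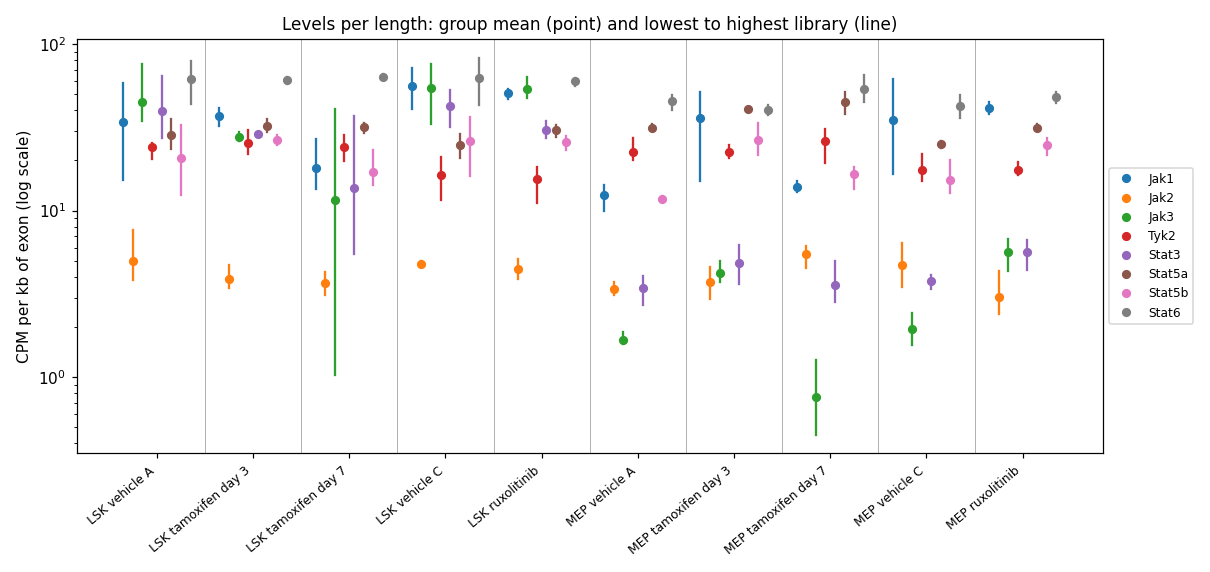
CPM per kilobase of exon of each member, on a log axis, by group, with the group mean as a point and a line from the lowest to the highest library. Jak2 is low in both cell types, and Jak3 and Stat3 drop from near the top of the order in LSK vehicle libraries to near the bottom in MEP vehicle libraries.

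Jak3 and Stat3 were the members that set the cell types apart under vehicle. Jak3 pairs with the common gamma chain of interleukin receptors, and Stat3 carries signals of the interleukin 6 family and of G-CSF. On a scale joint to both cell types, Jak3 was 132, 452, 130 and 122 CPM in LSK vehicle A and 10.1, 10.2 and 7.53 CPM in MEP vehicle A. Every MEP library lay below every LSK library, and the means of 9.29 ± 1.53 (SD, n = 3) and 209 ± 162 (SD, n = 4) CPM differed 22.5-fold, a log2 difference of -4.49 ± 0.85 (edgeR adjusted p = 0.000179). In vehicle C it was 158 and 514 CPM in LSK cells and 18.4, 12.6 and 15.4 CPM in MEP cells, a log2 difference of -4.44 ± 0.89 (edgeR adjusted p = 0.000389).

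Stat3 was 182, 684, 218 and 219 CPM in LSK vehicle A and 31.0, 35.0 and 34.1 CPM in MEP vehicle A. The groups did not overlap, and the difference was 9.76-fold, or -3.29 ± 0.52 on the log2 scale (edgeR adjusted p = 1.36e-05). In vehicle C it was 270 and 639 CPM against 55.5, 41.7 and 67.1 CPM, a log2 difference of -3.05 ± 0.55 (edgeR adjusted p = 0.0001). The other 6 members were not called in either batch. Jak1 was nearest in vehicle A, at -1.21 ± 0.47 (edgeR adjusted p = 0.0788). Thus 2 of 8 members were called lower in each batch, against 8.71% of genes called lower in vehicle A and 8.46% in vehicle C. The same 2 had groups that did not overlap, against 22.0% and 33.2% of genes. The vehicle groups of each cell type share label numbers across the batches, so the batches are not separate evidence.

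In LSK cells no member was called under any treatment. At tamoxifen day 3, 0.0% of genes were called in all (1019 of 26930 genes had an unadjusted p below 0.05, and DESeq2 called 93 and limma voom 4), and the library ranges of 0 of 8 members were apart from vehicle A, against 4.04% of genes. Jak3 was 152, 125 and 106 CPM against 159, 508, 152 and 152 CPM, a log2 difference of -0.92 ± 0.91 with 1 vehicle library far above the rest. The median log2 difference was -0.13 over the 8 members, against -0.02 over all genes and -0.13 over expressed genes, those with a mean of at least 10 CPM. The summed macrophage markers reached 1570 to 12340 CPM in the day 3 libraries, against 153 to 4866 CPM in vehicle A, and their part in these values was not tested.

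With ruxolitinib 0.0223% of genes were called in LSK cells (2402 had an unadjusted p below 0.05, and DESeq2 called 140 and limma voom 9), with only 2 vehicle libraries. Stat5a was 324, 307 and 281 CPM, against 146 and 292 CPM in vehicle C, and showed the largest difference of the 8, 0.47 ± 0.36 (edgeR adjusted p = 0.648). The vehicle libraries differed from each other by more than the treated libraries did. No member's libraries were apart from vehicle, against 20.8% of genes. The other members lay within 0.34 of no difference, and the members' median was 0.08, against -0.25 over all genes. DESeq2 and limma voom also called none of the 8 at day 3 or with ruxolitinib. DESeq2 gave no adjusted p for Jak3 and Stat3 in any of the 3 LSK treatment comparisons.

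At LSK day 7 the test gave no call for the 8, against 0.104% of 26930 genes (2405 had an unadjusted p below 0.05, DESeq2 called 332 and limma voom 1038), and no member's libraries were all apart from vehicle, against 3.52% of genes. The values split by library. Jak3 was 14.5, 5.41 and 4.91 CPM in replicates 1 to 3 and 184 CPM in replicate 4, against 152 to 508 CPM in vehicle A. Stat3 was 54.9, 44.3 and 52.5 CPM in replicates 1 to 3 and 295 CPM in replicate 4, against 219 to 768 CPM. For both genes replicate 4 lay inside the vehicle range and the other 3 libraries lay far below it.

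Over all 4 day 7 libraries the log2 differences were -2.22 ± 0.86 for Jak3 (edgeR adjusted p = 0.362) and -1.76 ± 0.55 for Stat3 (edgeR adjusted p = 0.218). Without replicate 4 they were -4.87 ± 0.59 (edgeR adjusted p = 7.88e-05) and -2.91 ± 0.42 (edgeR adjusted p = 0.000361). By replicate 4 alone they were -0.33 ± 0.65 and -0.29 ± 0.58, both with an edgeR adjusted p of 1.0. Limma voom called both with all libraries. Since the library index was defined from this same split, and both genes met its rule, the split is a description of these libraries.

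Jak1, the partner of JAK2, JAK3 or TYK2 on many receptors, was 90.7, 112, 87.1 and 163 CPM at LSK day 7, against 92.4, 530, 200 and 165 CPM in vehicle A. Its log2 difference was -1.12 ± 0.42 (edgeR adjusted p = 0.328), and -0.43 without vehicle A replicate 2. Jak1, Jak2, Jak3 and Stat3 had an unadjusted p below 0.05. Stat5a was level, at 200, 203, 185 and 200 CPM against 175, 319, 137 and 153 CPM, a difference of 0.01. Tyk2 and Stat6 each differed by -0.11 and Stat5b by -0.48. The members' median was -0.49, against -0.09 over all genes. Granulocyte and monocyte progenitor markers summed to 8892 to 16870 CPM, against 1616 to 3668 CPM in vehicle A, with 2 of 10 called higher, and their part in these values was not tested.

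**Figure D3:**
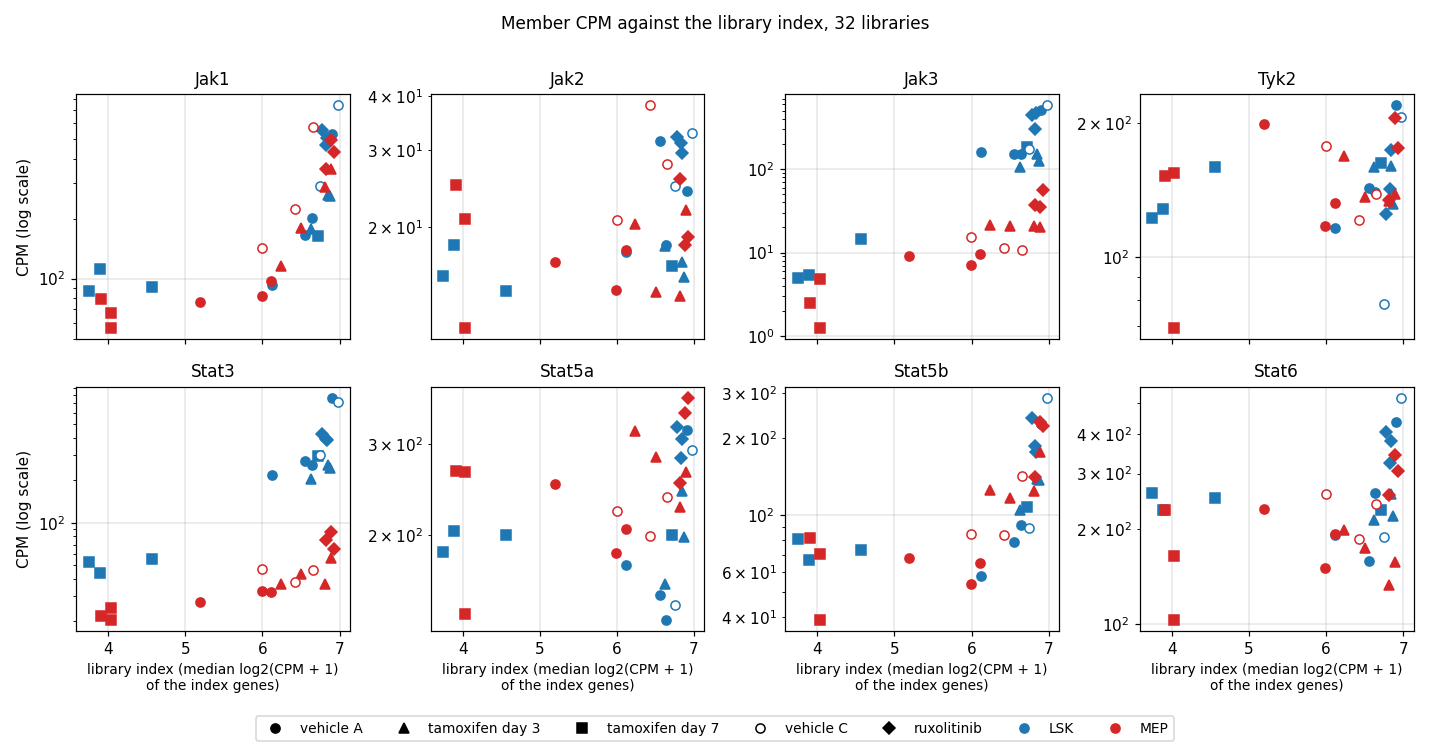
CPM of members on a log axis against the library index, the median log2(CPM + 1) of 291 other genes, in the 32 libraries, with cell type and group marked. Within each cell type Jak3 and Stat3 are lowest at the lowest index values, the highest Jak1 and Stat5b values lie at an index above 6.5, and 3 LSK day 7 libraries and 3 MEP day 7 libraries sit at an index of 3.75 to 4.56.

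At tamoxifen day 3 in MEP cells, 3 members rose: Jak1, Jak3 and Stat5b. Jak1 was 115, 354, 178 and 289 CPM, against 76.5, 97.4 and 81.4 CPM in vehicle A. All day 3 libraries lay above all vehicle libraries, but they spread widely, with means of 234 ± 107 (SD, n = 4) and 85.1 ± 10.9 (SD, n = 3) CPM. The log2 difference was 1.46 ± 0.37 (edgeR adjusted p = 0.0488).

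Jak3 was between 20.4 and 21.2 CPM in the 4 day 3 libraries, against 9.0, 9.51 and 7.19 CPM, and the groups did not overlap. Its means were 20.8 ± 0.335 and 8.57 ± 1.22 CPM (SD), a log2 difference of 1.28 ± 0.32 (edgeR adjusted p = 0.0422). The 4 day 3 libraries were closely alike for this gene. Stat5b was 126, 177, 117 and 124 CPM, against 68.1, 64.8 and 53.7 CPM, again without overlap, a log2 difference of 1.13 ± 0.27 (edgeR adjusted p = 0.0348).

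The other 5 members were not called at day 3. Stat3 was 36.5, 56.1, 43.6 and 36.9 CPM, above the vehicle values of 27.5, 32.5 and 32.6 CPM in each library, with a log2 difference of 0.49 ± 0.21 (edgeR adjusted p = 0.595). Stat5a differed by 0.35, Jak2 by 0.12, Tyk2 by -0.05 and Stat6 by -0.21. So 3 of 8 members were called higher, against 0.886% of the 25274 genes tested and 2.48% of expressed genes, while 1.21% of genes were called in either direction. For 4 of 8 the libraries did not overlap, against 8.97% of genes. The members' median was 0.42, against 0.00 over all genes.

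These 3 calls stood close to the threshold. Each was lost in at least 6 of 7 fits without a library: Jak1 and Stat5b were called in 1 of 7, without day 3 replicate 1, and Jak3 in 0 of 7. The log2 differences in those fits were 1.19 to 1.72 for Jak1, 1.19 to 1.39 for Jak3 and 0.98 to 1.22 for Stat5b, all of the same sign as reported. In the other settings Jak1 was called in 5 of 10, and Jak3 and Stat5b in 7 of 10 each. Jak1 was not called with RLE factors (1.47, edgeR adjusted p = 0.0707) or limma voom (1.34, limma adjusted p = 0.0881). With the library index as a covariate the log2 differences were 0.12 for Jak1 (edgeR adjusted p = 0.999), 1.43 for Jak3 (edgeR adjusted p = 0.361) and 0.89 for Stat5b (edgeR adjusted p = 0.872). Over the 4 day 3 libraries Jak1 was 115, 178, 289 and 354 CPM at an index of 6.23, 6.50, 6.81 and 6.89. Of the 291 index genes 74 were called higher and 1 lower in this comparison. The summed stem cell markers were 727 to 832 CPM, against 298 to 554 CPM in vehicle A, most of it Kit (677 to 794 CPM, against 253 to 506 CPM), with 0 of 10 called. No megakaryocyte marker was called, and of 9 erythroid markers 1 was called higher and 1 lower. The gene called higher was Klf1, which encodes an erythroid transcription factor, at 131 to 773 CPM, against 26.3 to 125 CPM. Klf1 was 27.7 to 30.6 CPM at MEP day 7, 104 to 604 CPM in vehicle C and 759 to 1030 CPM with ruxolitinib. As a set the erythroid markers were level at day 3, with a median log2 difference of -0.02. They summed to 18590 to 21720 CPM, against 16250 to 20390 CPM in vehicle A. The part of these values in the member calls was not tested.

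At day 7 in MEP cells only Jak3 was called, and it fell. It was 4.89, 1.26 and 2.48 CPM (136, 27 and 56 counts), below the vehicle A values of 9.0, 9.51 and 7.19 CPM in every library. The means of 2.88 ± 1.85 and 8.57 ± 1.22 CPM (SD, n = 3 each) gave a log2 difference of -1.56 ± 0.35 (edgeR adjusted p = 0.0036). Jak3 was therefore above vehicle at day 3 and below it at day 7, in comparisons that share the same 3 vehicle libraries.

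After TMM scaling Stat3 was 20.4, 24.8 and 21.6 CPM at MEP day 7, below each vehicle library. It was not called, at -0.47 ± 0.23 (edgeR adjusted p = 0.269). Jak1 was 67.4, 56.7 and 78.8 CPM and Stat5b 70.7, 38.9 and 81.7 CPM, so both were back within or near the vehicle range, with differences of -0.33 and 0.04. Stat5a (0.06), Jak2 (0.24), Tyk2 (-0.25) and Stat6 (-0.21) also overlapped vehicle after TMM scaling. In plain CPM Stat3 overlapped vehicle A, at 26.9 to 47.5 against 25.95 to 38.5. Stat5a lay above vehicle A in plain CPM, at 269.5 to 365.5 against 216.5 to 236.6. So did Stat5b, at 74.55 to 101.4 against 63.28 to 68.18, and Jak2. On that scale Jak3 stayed below vehicle A, and Jak1, Tyk2 and Stat6 overlapped it. Stat5a was called higher in 2 of 10 other settings. These were expressed genes (0.44, edgeR adjusted p = 0.00715) and the GC offset (0.61, edgeR adjusted p = 0.0014). With the index as a covariate its difference was -0.52 (edgeR adjusted p = 0.697). Of the 8 members, 1 was called lower, against 7.03% of genes (8.42% in either direction), and 2 of 8 did not overlap, against 29.9%, so the members' counts are close to the background. The members' median was -0.23, against 0.21 over all genes and -0.38 over expressed genes.

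All 3 MEP day 7 libraries had the low index of 3.91 to 4.03, and 246 of the 291 index genes were called lower and 0 higher. The index and the treatment cannot be told apart in this comparison. With the index as a covariate the log2 difference of Jak3 was -1.88 ± 0.75 and was not called (edgeR adjusted p = 0.213). Its log2 difference was -2.20 to -1.26 in the fits without a library, and it was called in 6 of 6. Markers of cell types moved as well. Megakaryocyte markers summed to 402 to 809 CPM, against 82.7 to 110 CPM in vehicle A, with 8 of 9 called higher. Stem cell markers summed to 1421 to 1578 CPM, against 298 to 554 CPM, with 3 of 10 called higher. Most of that sum was Kit, at 1250 to 1450 CPM, against 253 to 506 CPM. Erythroid markers had 4 of 9 called lower, while their sum was 18990 to 20370 CPM, against 16250 to 20390 CPM. T and NK cell markers summed to 89.8 to 165 CPM, against 18.2 to 31.9 CPM. Neutrophil markers summed to 58.3 to 101 CPM, against 9.86 to 19.5 CPM. Both lists had 2 markers called higher and 0 lower, as did the granulocyte and monocyte progenitor, B cell, and mast cell and basophil lists. Their part in the Jak3 value was not tested.

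Ruxolitinib in MEP cells went with higher Jak3, Stat3 and Stat5b. Jak3 was 35.4, 56.6 and 37.1 CPM, against 15.5, 11.5 and 10.7 CPM in vehicle C. The groups were well apart, with means of 43.0 ± 11.8 and 12.6 ± 2.55 CPM (SD, n = 3 each), a 3.43-fold rise and a log2 difference of 1.78 ± 0.33 (edgeR adjusted p = 0.000431). Jak3 was called in 10 of 10 other settings and in 6 of 6 fits without a library, over a log2 range of 1.36 to 2.03 in the former.

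Stat3 was 86.0, 65.4 and 74.8 CPM with ruxolitinib, against 46.8, 38.1 and 46.5 CPM, a 1.72-fold rise without overlap (log2 0.78 ± 0.23, edgeR adjusted p = 0.00834). Its call was lost in 4 of 10 other settings: among expressed genes (0.69, edgeR adjusted p = 0.069), with a GC offset (0.63, edgeR adjusted p = 0.105), with the index as a covariate (0.64, edgeR adjusted p = 0.0522) and in a fit of these 2 groups alone (0.78, edgeR adjusted p = 0.0508). Stat5b was 231, 223 and 140 CPM, against 84.6, 83.7 and 143 CPM. The lowest treated library lay just under the highest vehicle library, with a log2 difference of 0.93 ± 0.28 (edgeR adjusted p = 0.0111). That call was lost without vehicle C replicate 1 (0.79, edgeR adjusted p = 0.0616) or replicate 2 (0.80, edgeR adjusted p = 0.065), and in the fit of these 2 groups alone (0.89, edgeR adjusted p = 0.0614).

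Stat5a was 344, 369 and 252 CPM with ruxolitinib, above the vehicle values of 222, 199 and 237 CPM, and missed the threshold at 0.55 ± 0.25 (edgeR adjusted p = 0.0781). It was called in 5 of 10 other settings: RLE factors (0.65, edgeR adjusted p = 0.0146), DESeq2 (0.66, adjusted p = 0.0108), expressed genes (0.43, edgeR adjusted p = 0.0189), pooled vehicles (0.57, edgeR adjusted p = 0.0261) and the index covariate (0.72, edgeR adjusted p = 0.0461). Jak1 was 493, 432 and 355 CPM, against 143, 222 and 575 CPM, where vehicle C replicate 3 was the highest library of all 6, and its difference was 0.44. Tyk2 differed by 0.23 and Stat6 by 0.40. Thus 3 of 8 members were called higher, against 3.43% of genes and 7.13% of expressed genes, while 42.0% of genes were called in either direction and 38.5% were called lower. A fit of expressed genes alone called 13.8% (341 higher and 782 lower), and a fit of these groups alone 17.6%. For 3 of 8 the libraries did not overlap, against 40.7%. The members' median was 0.50, against -1.07 over all genes and 0.11 over expressed genes, and with RLE in place of TMM factors the median over all genes was -0.93.

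Tyk2, Stat5a and Stat6 were called in none of the 13 comparisons, and neither was Jak2. Tyk2, which serves interferon and interleukin 12 receptors, ran from 78.6 to 219 CPM in LSK libraries and from 69.4 to 205 CPM in MEP libraries. Stat6 ran from 158 to 521 CPM and from 103 to 345 CPM. The lowest MEP library for both genes was day 7 replicate 2, which was also the lowest of the MEP libraries for Jak1, Jak2, Jak3, Stat5a and Stat5b. That library had a TMM factor of 1.92, the highest of the 16 MEP libraries, and CPM values are divided by this factor.

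Markers of cell types moved with ruxolitinib too. Stem cell markers summed to 474 to 622 CPM, against 179 to 465 CPM in vehicle C, with 3 of 10 called higher. Most of that sum was Kit, at 397 to 491 CPM, against 154 to 427 CPM. Megakaryocyte markers summed to 179 to 362 CPM, against 31.3 to 79.1 CPM, with 7 of 9 called higher. Granulocyte and monocyte progenitor markers summed to 30.9 to 111 CPM, against 5.87 to 20.4 CPM, with 5 of 9 called higher and 1 lower. By calls, other lists fell or were mixed, where 38.5% of all genes were called lower. Neutrophil markers had 6 of 9 called lower, and T and NK cell markers 6 of 8 lower and 2 higher. B cell markers had 4 of 10 lower and 2 higher, and mast cell and basophil markers 4 of 9 higher and 2 lower. Erythroid markers had 2 of 9 higher and 2 lower, and macrophage markers 1 of 9 each way. The T and NK cell sum was higher, at 61.22 to 97.97 CPM, against 6.378 to 34.6 CPM in vehicle C. So was the mast cell and basophil sum, at 15.97 to 49.93 CPM, against 4.916 to 14.23 CPM. The neutrophil sum was lower, at 0.5462 to 1.089 CPM, against 1.84 to 9.19 CPM. The macrophage sum was also lower, and the B cell and erythroid sums overlapped vehicle C. In plain CPM, the LSK sort marker Ly6a stayed near 0, at 0.0436 to 0.324, against 0.101 to 0.145, while Cd34 was 9.19 to 44.6, against 0.303 to 2.5. The part of these markers in the member values was not tested. The library index was also higher, and 95 of its 291 genes were called higher and 1 lower.

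**Figure D4:**
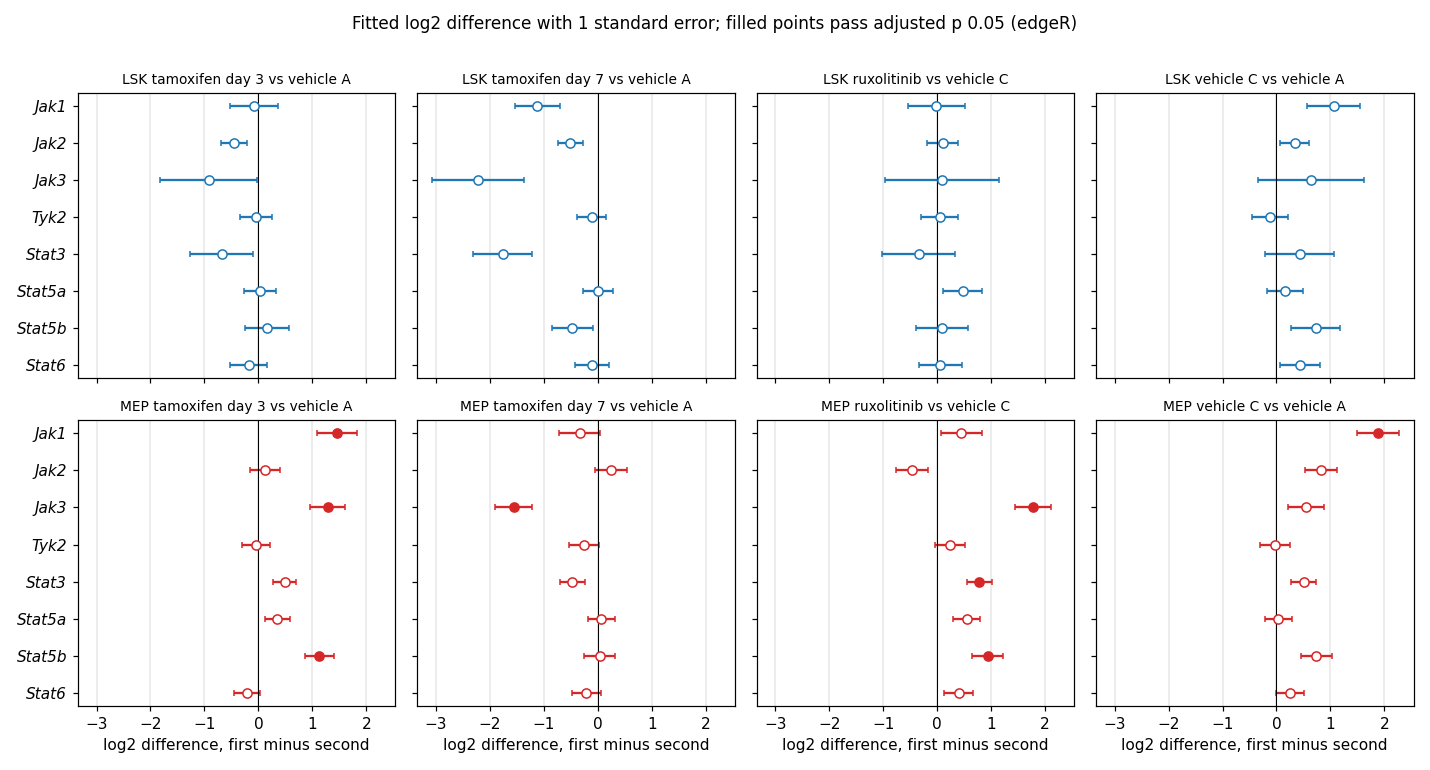
Fitted log2 differences of the 8 members, with 1 standard error, in each treatment comparison and between the vehicle batches, LSK above and MEP below, filled where called. The rises of Jak1, Jak3 and Stat5b at MEP day 3, the fall of Jak3 at MEP day 7 and the rises of Jak3, Stat3 and Stat5b with ruxolitinib in MEP cells are the 7 calls under treatment, and Jak1 is called between the MEP vehicle batches.

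The vehicle libraries of the batches also differed from each other. In MEP cells Jak1 was 143, 222 and 575 CPM in vehicle C, against 76.5, 97.4 and 81.4 CPM in vehicle A, a log2 difference of 1.88 ± 0.39 (edgeR adjusted p = 0.0112). That is larger than any treatment difference of Jak1, and it was not called without vehicle C replicate 3 (1.12, edgeR adjusted p = 0.083). Of 8 members, 1 was called higher, against 2.75% of genes (3.52% in either direction). For Jak1, Jak2, Jak3, Stat3 and Stat5b every vehicle C library lay above every vehicle A library, 5 of 8 against 30.3% of genes. In LSK cells none of the 8 was called between the vehicle batches (0.772% of genes were) and none had libraries apart (15.8% of genes did), and Jak1 differed by 1.06 ± 0.49 (edgeR adjusted p = 0.361). Tamoxifen and ruxolitinib responses were therefore not set against each other across batches.

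Whether the cell types responded differently was tested in a fit of all 32 libraries, as the MEP response minus the LSK response, and no member was called. At day 3 the difference of responses was 1.56 ± 0.66 for Jak1 (edgeR adjusted p = 1) and 2.23 ± 1.02 for Jak3 (edgeR adjusted p = 1), with unadjusted p of 0.0242 and 0.0364, and 0.0529% of genes were called. At day 7 it was 1.24 ± 0.65 for Stat3 (edgeR adjusted p = 0.483), with 0.458% of genes called. With ruxolitinib it was 1.86 ± 1.12 for Jak3 (edgeR adjusted p = 0.437), with 0.292% called. The calls in MEP cells are therefore not shown to be particular to them.

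Shares within a library do not depend on scaling between libraries. Stat5b made up 21.3%, 23.9% and 22.5% of the Stat5a and Stat5b counts in MEP vehicle A, and 28.4%, 40.1%, 29.2% and 35.4% at day 3. The day 3 libraries all lay above vehicle, at 33.3 ± 5.54% against 22.6 ± 1.31% (SD), and the exact permutation p of 0.0571 is the smallest that 4 against 3 libraries can give. At day 7 the share was 22.1 ± 1.24%, near vehicle. It was 37.9 ± 2.19% with ruxolitinib and 31.6 ± 5.29% in vehicle C (exact permutation p = 0.2). In LSK vehicle A it was 35.1 ± 7.64%, above MEP vehicle A in every library (exact permutation p = 0.0571).

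Jak2 made up 5.53%, 6.89% and 6.52% of the counts of the 4 kinases in MEP vehicle A and 8.44%, 8.46% and 9.65% at day 7. The day 7 share was higher in every library, at 8.85 ± 0.697% against 6.31 ± 0.707% (SD), with an exact permutation p of 0.1, the smallest that 3 against 3 can give. Jak1 made up 53.9 ± 14.0% of the kinase counts at MEP day 3 and 33.4 ± 6.92% in vehicle A (exact permutation p = 0.171). Of 24 two-sided share tests none had p below 0.05, and the lowest Benjamini-Hochberg adjusted p was 0.48.

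**Figure D5:**
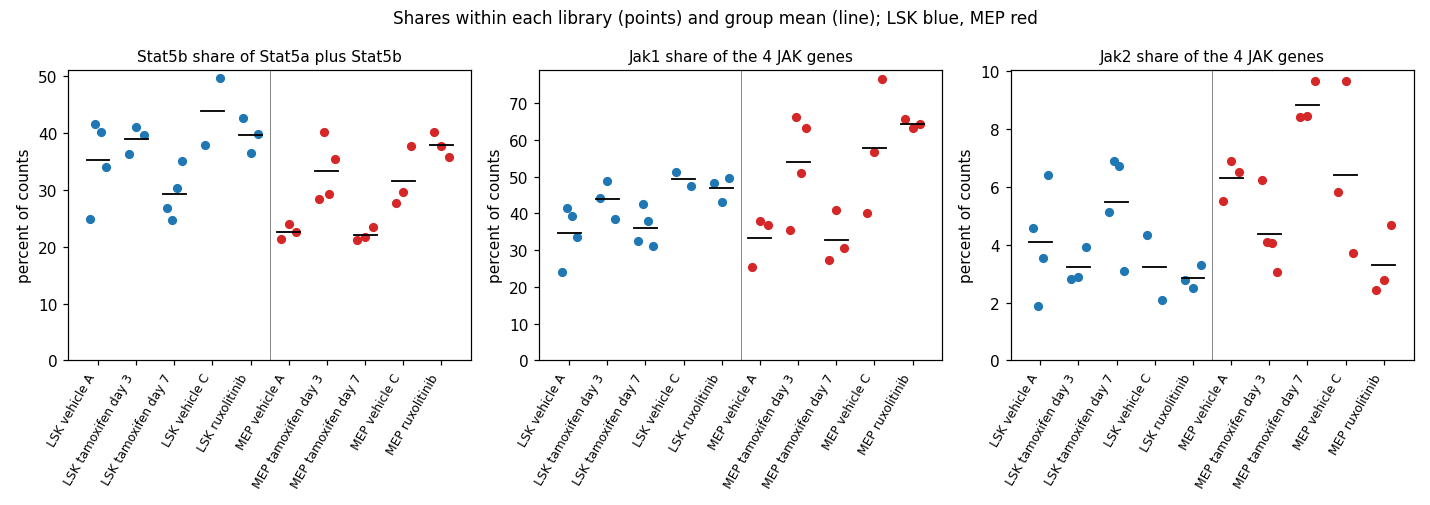
Percent of Stat5a and Stat5b counts that are Stat5b, and percent of the 4 kinases' counts that are Jak1 or Jak2, in each library (points) with the group mean (line), LSK in blue and MEP in red. The Stat5b share at MEP day 3 lies between 28.4% and 40.1%, above the 21.3% to 23.9% of vehicle A.

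Across the 32 libraries, each centred on the mean of its cell type and batch, the members fell into loose groups by the correlation of log2(CPM + 1). These correlations share libraries and the library index and are given as descriptions. The closest pairs were Jak3 with Stat3 (r = 0.887) and Jak1 with Stat5b (r = 0.851). Jak1 with Stat3 gave 0.644, Tyk2 with Stat6 gave 0.585 and Stat5a with Stat5b gave 0.563. Jak2 followed none of the others, with r from -0.18 to 0.10.

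Among 8678 genes with a mean of at least 10 CPM, those most like Jak1 were Rbl2 (r = 0.96), Caprin1 (0.959) and Cd47 (0.958). For Jak3 they were Arap1 (0.95), Zkscan17 (0.93) and Ccdc71 (0.929), and for Stat3 Foxred2 (0.921), Atg16l2 (0.907) and Tbcd (0.891). For Stat5b they were Tbc1d25 (0.907), Acadl (0.906) and Hsdl1 (0.898). Genes like Stat5a included Def8 (0.881) and the stem cell factor receptor gene Kit (0.804), and Stat6 was most like Inpp5d (0.79), Telo2 (0.77) and Vps18 (0.736). Tyk2 was most like Hps4 (0.738), AU040320 (0.737) and Ilvbl (0.714), and Jak2 most like Sos2 (0.821), Rwdd3 (0.758) and Tnks2 (0.732).

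The genes upstream of the kinases were read from lists of 35 receptors and 21 ligands that signal through them. In LSK cells no receptor or ligand was called under any treatment. In MEP cells at day 3, 1 of 35 receptors rose, against 0.886% of all genes. It was the interferon receptor chain Ifnar2 (1.67 ± 0.41, edgeR adjusted p = 0.0428). At day 7, 2 of 35 receptors were called higher and 2 lower, against 8.42% of all genes called in either direction. Il10ra was among those called higher (1.93, edgeR adjusted p = 0.0468). The erythropoietin receptor Epor (-1.92 ± 0.36, edgeR adjusted p = 0.000578) and Ifnar1 (-1.29, edgeR adjusted p = 0.00123) fell. With ruxolitinib 7 rose and 10 fell, against 3.43% and 38.5% of all genes, among them Il6ra, Prlr, Osmr, Ghr and Lifr, which fell from under 4 CPM each. Of the ligands tested in MEP cells (15 of 21), Osm, which encodes oncostatin M and is a STAT5 target, fell at day 3 (-2.16 ± 0.26, edgeR adjusted p = 2.22e-05), at day 7 (-2.03) and with ruxolitinib (-0.96). With ruxolitinib 6 other ligands, all under 2 CPM, were also called lower. That made 7 of 15 ligands, where 38.5% of all genes were called lower, and nothing is read from that count.

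Under vehicle, 23 of 35 receptor genes were called lower in MEP cells than in LSK cells in each batch, against 8.71% of all genes in vehicle A and 8.46% in vehicle C. Epor was higher in MEP cells in both (2.62 ± 0.41 in vehicle A, edgeR adjusted p = 1.41e-05). Of the other STAT genes, Stat4 was lower in MEP vehicle A (-3.84 ± 0.42, edgeR adjusted p = 2.72e-08), as Stat3 was, and it was not called under treatment.

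Downstream of the STAT proteins, feedback inhibitors and STAT5 targets were read from lists of 19 and 16 genes. These lists were chosen with earlier results of these libraries known and are no independent evidence of a direction. At MEP day 3, 5 of 15 tested targets fell and 0 rose, against 0.324% of all genes called lower, with a list median of -0.41. Cish, a STAT5-induced inhibitor, was 0.543 ± 0.287 CPM, against 20.5 ± 8.96 CPM in vehicle A (log2 -5.23 ± 0.45, edgeR adjusted p = 9.32e-08). Podxl fell by 5.04 on the log2 scale (edgeR adjusted p = 3.52e-10), Ccnd2, a cyclin, by 1.59 (edgeR adjusted p = 0.000811) and Socs2, another inhibitor, by 1.23 (edgeR adjusted p = 0.0372). In the same libraries Stat5b was called higher and Stat5a differed by 0.35.

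At MEP day 7, 4 of 15 targets fell (Podxl, Cish, Osm and Pim2) and 0 rose, against 7.03% of all genes called lower, with Cish at -3.85 ± 0.47 (edgeR adjusted p = 2.02e-06). With ruxolitinib 5 of 15 fell (Cish, Socs2, Podxl, Osm and Pim1) and 0 rose, no larger a share than the 38.5% of all genes called lower there, and nothing is read from that count. Cish was at -3.22 ± 0.45 (edgeR adjusted p = 7.28e-05) and Socs2 at -2.15 ± 0.34 (edgeR adjusted p = 0.000134), while Stat5b was called higher. Of 18 inhibitors tested, the tyrosine phosphatases Ptpn1 (1.33) and Ptpn6 (0.76) and Pias4 (1.16) rose with ruxolitinib, and Cish and Socs2 fell. Of all genes 3.43% were called higher there and 38.5% lower. In LSK cells Socs2 alone of both lists was called, lower at day 7 (-1.68 ± 0.25, edgeR adjusted p = 0.0219), where 0.0483% of all genes were. The fall at day 3 was larger in MEP than in LSK cells for Podxl (difference of responses -3.60 ± 0.45, edgeR adjusted p = 4.09e-05) and Cish (-3.19 ± 0.60, edgeR adjusted p = 0.0198).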

How the data were processed

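RNA sequencing counts of 32 libraries, 16 each of LSK and MEP cells, were analysed. Per the labels' protocols, RNA came from cells sorted into TriZOL by way of the Direct-Zol kit, and the Takara HT-Seq kit gave paired-end libraries. The deposited table holds unnormalized counts for each gene symbol and library, from STAR and featureCounts with mm10 per the submitters' processing notes. Those notes give no tool versions and no setting for strand or for reads that align in several places. Titles and characteristics gave the groups, and 0 columns were left unmapped. The members and gene lists were chosen with earlier results of these data known.

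Each cell type was fitted over its 16 libraries with a mean per group (edgeR 4.0.16 in R 4.3.3, quasi-likelihood F test, two-sided, genes kept by filterByExpr with min.count 10, TMM factors, Benjamini-Hochberg adjustment over all genes tested, threshold 0.05). MEP against LSK and the differences of responses came from a joint fit of 32 libraries, in which libraries that share a label number were treated as independent. After the filter 26930 (LSK), 25274 (MEP) and 28378 (joint) genes were tested. Standard errors were derived from the log2 difference and its F value. Shares were tested with exact permutation tests (scipy 1.17.1). The procedure was tested on simulated data.

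Named genes are the 8 members, the called genes of each pathway list (at most 6 a list and comparison, by adjusted p) and the 3 genes of most like pattern to each member. Some genes that this rule names are left out of the text. Promoters are printed for members called under a treatment. Positions and lengths are from GENCODE M21.

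Deeper libraries measure low genes such as MEP Jak3 (27 counts at the lowest) more precisely. Between libraries of a group the chi-square statistic per degree of freedom was at least 12.65, more than sampling noise. So no library was taken as a repeat deposit of another in its group. The check did not cover libraries of different groups, such as vehicle libraries that share a label number across the batches. As alternatives, the fits were repeated with each replicate left out, with a replicate block, with vehicle batches pooled, on the compared groups alone, on expressed genes only (also with a GC offset), without the count filter and with RLE factors. DESeq2 1.42.0 and voom of limma 3.58.1, the latter with a random block for the label number, were also run. The library index as a covariate, and LSK day 7 by replicate 4 alone or without replicates 1 to 3, were chosen after seeing the data.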

Additional observations from a re-analysis of the deposited data

Results flagged for a closer look

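In 6 cases a single library stood far from the others of its group, by a gap that Dixon's criterion passes by chance in about 1 of 20 groups. In LSK vehicle A the highest library, replicate 2 with label number 18, reached 507.6 CPM for Jak3 and 768.4 CPM for Stat3. In LSK tamoxifen day 7 the highest library, replicate 4, reached 183.6 CPM for Jak3 and 295.4 CPM for Stat3. In MEP tamoxifen day 3 the highest libraries reached 169.1 CPM for Tyk2, in replicate 1, and 177.0 CPM for Stat5b, in replicate 2.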

How the results depend on the processing

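Counts of the 8 members called are given, with the value reported first, and where a count moved the cause was not tested. LSK day 7 gave 0, but 1 with the replicate number as a block (Jak3, edgeR adjusted p = 0.0499), 2 with limma voom and 0 to 2 without a library (2 without day 7 replicate 4). MEP day 3 gave 3, but 0 with the replicate block, 0 with the library index as a covariate, 0 with pooled vehicles and 0 to 2 without a library (2 without day 3 replicate 1). Jak1 at MEP day 3 was also lost with RLE factors and with limma voom. MEP day 7 gave 1, but 2 among expressed genes and 2 with a GC offset (Jak3 and Stat5a), 0 with the index, 3 with pooled vehicles and 1 to 1 without a library. MEP ruxolitinib gave 3, but 1 in a fit of the compared groups alone, 5 with pooled vehicles and 2 to 5 without a library (5 without vehicle C replicate 3, 2 without vehicle C replicate 1 or 2). MEP against LSK gave 2 in vehicle A, but 4 among expressed genes, 4 with a GC offset and 2 to 3 without a library, and 2 in vehicle C, but 4 with a GC offset and 2 to 2 without a library. The day 7 difference of responses gave 0, but 2 without LSK day 7 replicate 4. MEP vehicle C against A gave 1, but 0 among expressed genes, with a GC offset or with the index, and 0 to 2 without a library (2 without vehicle C replicate 1, 0 without replicate 3 of either batch). LSK vehicle C against A gave 0, but 1 without vehicle A replicate 2. LSK day 3, LSK ruxolitinib and the other 2 differences of responses stayed at 0 to 0 without a library. Stat6 was highest per kilobase in 27 libraries, or 10 with the longest transcript.

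Stat5a was gained in MEP ruxolitinib under RLE factors, DESeq2, expressed genes, pooled vehicles and the index covariate, and at MEP day 3 among expressed genes (0.41, edgeR adjusted p = 0.0272). Over all genes, the number called over these settings ran from 1 to 1038 at LSK day 7 (28 reported), 6 to 5341 with LSK ruxolitinib (6), 71 to 962 at MEP day 3 (306), 527 to 4950 at MEP day 7 (2128) and 1123 to 14634 with MEP ruxolitinib (10605).

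Replicate numbers did not pair treated with vehicle libraries: deviations of same-numbered libraries correlated at -0.339 to 0.407. Vehicle libraries with the same label number in both batches correlated at 0.304 to 0.689, and with those pairs as a block Jak1 in MEP vehicle C was 1.58 ± 0.26 above vehicle A (edgeR adjusted p = 0.0012). No member changed direction while called in any alternative run. The LSK comparisons are limited by 2 to 4 libraries that differ among themselves, and MEP Jak3 by its few counts.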
